A study of Mus musculus with 12 samples.

Results

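The genes described here are 44 collagens, matrix proteins and matrix enzymes, of 14822 genes in a table of RNA levels from whole mouse liver. They were listed by gene symbol, with earlier results of these data known. All 44 symbols had a row. They fall into 10 classes: fibrillar collagens, collagen VI, fibril-associated collagens, basement membrane proteins, small leucine-rich proteoglycans, elastic fibre proteins, adhesive and matricellular proteins, cross-linking enzymes, proteases and protease inhibitors. The liver came from C57BL6/J mice in 3 groups of 4 libraries. The chow group had a chow diet with vehicle, the MASH vehicle group a diet that induces MASH with vehicle, and the FGF21 group that same diet with daily FGF21 at 1 mg per kg. MASH, metabolic dysfunction-associated steatohepatitis, joins fat storage in hepatocytes to inflammation and fibrosis. Treatment lasted 4 weeks and the vehicle was saline. FGF21 is a hormone that acts through FGF receptors and the co-receptor Klb. The labels used here give neither the age or sex of the mice nor the composition of the diet, and do not say that the libraries of a group are separate animals, so the spread behind the p-values is that of these libraries and may be technical.

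The matrix of the liver is thin and, in the sinusoids, holds little basement membrane. In chronic injury stellate cells, which store vitamin A in healthy liver, become myofibroblasts that secrete collagens I and III, the main collagens of scar tissue. The collagen chains are hydroxylated and trimmed, assembled into fibrils and cross-linked by lysyl oxidases, and matrix metalloproteinases cut them, held back by the TIMP inhibitors. Some matrix proteins, among them fibronectin and the chain of collagen XVIII, are made in large amounts by hepatocytes themselves. In bulk liver RNA, fewer cells of a type and less RNA per cell cannot be told apart.

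Promoter sequences of some of the genes are shown first, and no link between their letters and the levels was tested. RefSeq (GRCm38.p6, the assembly also called mm10) holds a promoter window for 31 of the 44 genes, 37 windows in all, each of 300 bases from 250 before to 50 after a start site. The search covered the TATA box as TATAAA, the CCAAT box by its letters, the GC box as GGGCGG and the AP-1 site as TGANTCA. Motifs were looked for on both strands, and a match is a description of the letters and not of a bound factor. In the following windows of Col1a2, Col3a1 and Timp1, which were lower with FGF21 than with MASH vehicle, and of Mmp14, which was higher, the capitals mark these motifs on either strand, and motifs that touch or overlap form 1 run. Col1a2 lies at chr6:4505368-4505667 on the plus strand, Col3a1 at chr1:45311288-45311587 on the plus strand, Timp1 at chrX:20869916-20870215 on the plus strand and Mmp14 at chr14:54431348-54431647 on the plus strand.
Col1a2: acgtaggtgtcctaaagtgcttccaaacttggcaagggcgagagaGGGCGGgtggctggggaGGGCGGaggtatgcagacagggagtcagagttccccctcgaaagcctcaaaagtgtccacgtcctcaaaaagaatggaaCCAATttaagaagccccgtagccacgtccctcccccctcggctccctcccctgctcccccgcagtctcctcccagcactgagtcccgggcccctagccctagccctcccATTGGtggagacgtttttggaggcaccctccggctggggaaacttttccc
Col3a1: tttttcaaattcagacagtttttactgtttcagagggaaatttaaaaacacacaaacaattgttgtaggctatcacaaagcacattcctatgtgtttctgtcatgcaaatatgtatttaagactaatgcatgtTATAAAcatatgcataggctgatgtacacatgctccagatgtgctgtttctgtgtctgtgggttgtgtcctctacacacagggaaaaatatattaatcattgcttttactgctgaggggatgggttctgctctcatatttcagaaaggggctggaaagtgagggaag
Timp1: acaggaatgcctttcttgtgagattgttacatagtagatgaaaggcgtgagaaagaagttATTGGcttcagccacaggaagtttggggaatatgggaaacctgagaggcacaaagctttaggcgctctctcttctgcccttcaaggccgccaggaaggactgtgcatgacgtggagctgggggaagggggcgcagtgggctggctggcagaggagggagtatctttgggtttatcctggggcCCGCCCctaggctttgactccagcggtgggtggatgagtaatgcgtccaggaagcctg
Mmp14: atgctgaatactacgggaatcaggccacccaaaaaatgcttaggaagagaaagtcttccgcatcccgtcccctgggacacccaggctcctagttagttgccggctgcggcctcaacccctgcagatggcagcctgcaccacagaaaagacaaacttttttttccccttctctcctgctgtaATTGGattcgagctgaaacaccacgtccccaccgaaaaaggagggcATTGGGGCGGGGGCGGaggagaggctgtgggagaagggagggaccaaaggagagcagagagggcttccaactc

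The Col1a2 window held 2 CCAAT boxes and 2 GC boxes, the Col3a1 window only 1 TATAAA, the Timp1 window 1 CCAAT box and 1 GC box, and the Mmp14 window 2 CCAAT boxes and 2 GC boxes. Of the member windows, 67.6% held GGGCGG against 35.7% of all 32851 windows of the same length, 37.8% against 37.4% held CCAAT, 10.8% against 13.6% TATAAA and 5.41% against 7.81% TGANTCA. Among the genes called lower with FGF21, 4 of 8 windows (7 genes) held GGGCGG and among those called higher 3 of 4 windows (3 genes). Col4a1 and Col4a2, which encode the chains of the main collagen IV trimer, are transcribed in opposite directions from start sites 21 bases apart on chromosome 8 (11312826 and 11312805). Their windows, at chr8:11312777-11313076 on the minus strand and chr8:11312555-11312854 on the plus strand, share 78 bases, which the capitals mark.
Col4a1: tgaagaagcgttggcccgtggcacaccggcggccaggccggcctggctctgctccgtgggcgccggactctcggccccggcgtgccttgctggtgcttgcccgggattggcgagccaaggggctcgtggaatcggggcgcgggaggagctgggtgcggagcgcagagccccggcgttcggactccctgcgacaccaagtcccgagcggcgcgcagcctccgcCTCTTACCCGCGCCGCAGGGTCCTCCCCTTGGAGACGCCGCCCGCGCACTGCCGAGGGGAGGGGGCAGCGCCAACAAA
Col4a2: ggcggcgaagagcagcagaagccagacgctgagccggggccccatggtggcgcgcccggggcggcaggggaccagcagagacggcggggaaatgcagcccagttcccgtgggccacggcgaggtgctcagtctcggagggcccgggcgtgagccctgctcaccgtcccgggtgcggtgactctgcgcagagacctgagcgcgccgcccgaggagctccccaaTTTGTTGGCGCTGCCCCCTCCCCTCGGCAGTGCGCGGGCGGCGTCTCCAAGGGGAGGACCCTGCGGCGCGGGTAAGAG

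The deposited values are TPM (transcript abundance per length, scaled to a total of 1000000 per library, with 1 decimal), and the reads behind a value are unknown because TPM holds no depth. Totals were 999842.4 to 999890.5 TPM except in FGF21 replicates 1, 3 and 4, with 992031.9, 991794.2 and 998783.1. FGF21 replicates 1 and 3 also had 19.4 and 29.9 TPM of summed smooth muscle markers against 3.9 to 9.1 in the other 10 libraries, and Pearson's r between libraries across genes was 0.958 to 0.988 in FGF21 against 0.983 to 0.994 in the other groups. Genes with at least 1 TPM in at least 4 libraries were tested, 10988 in all. Of the 44 members 40 passed this filter, Timp1 only through the MASH vehicle libraries, and Fbn1, Thbs1, Thbs2 and Lox did not. Fold changes are differences of log2(TPM + 1), which understates the change of low genes, and "rose", "fell", "higher" and "lower" as calls mean a limma p under 0.05 after Benjamini-Hochberg adjustment over every tested gene.

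Across the members, 34 were at 1 TPM or more in all 12 libraries, 12 had a mean over 10 TPM and 5 a mean under 1 TPM. Col18a1 and Fn1 alone had means over 100 TPM and made up 79.7% ± 1.23 of the summed TPM of the 44 genes in the 4 chow libraries (mean ± SD), 60.9% ± 3.83 on the MASH diet with vehicle and 77.5% ± 4.27 with FGF21. The sum of the other 42 genes was 265 ± 28 TPM in chow, 580 ± 116 in MASH vehicle and 470 ± 63.7 in FGF21. The libraries of a group differed in order as well. MASH vehicle replicate 3 was the highest library of its group for 32 of the 44 genes and replicate 1 the lowest for 37. FGF21 replicate 4 was the highest of its group for 19 genes and the lowest for 11.

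**Figure D1:**
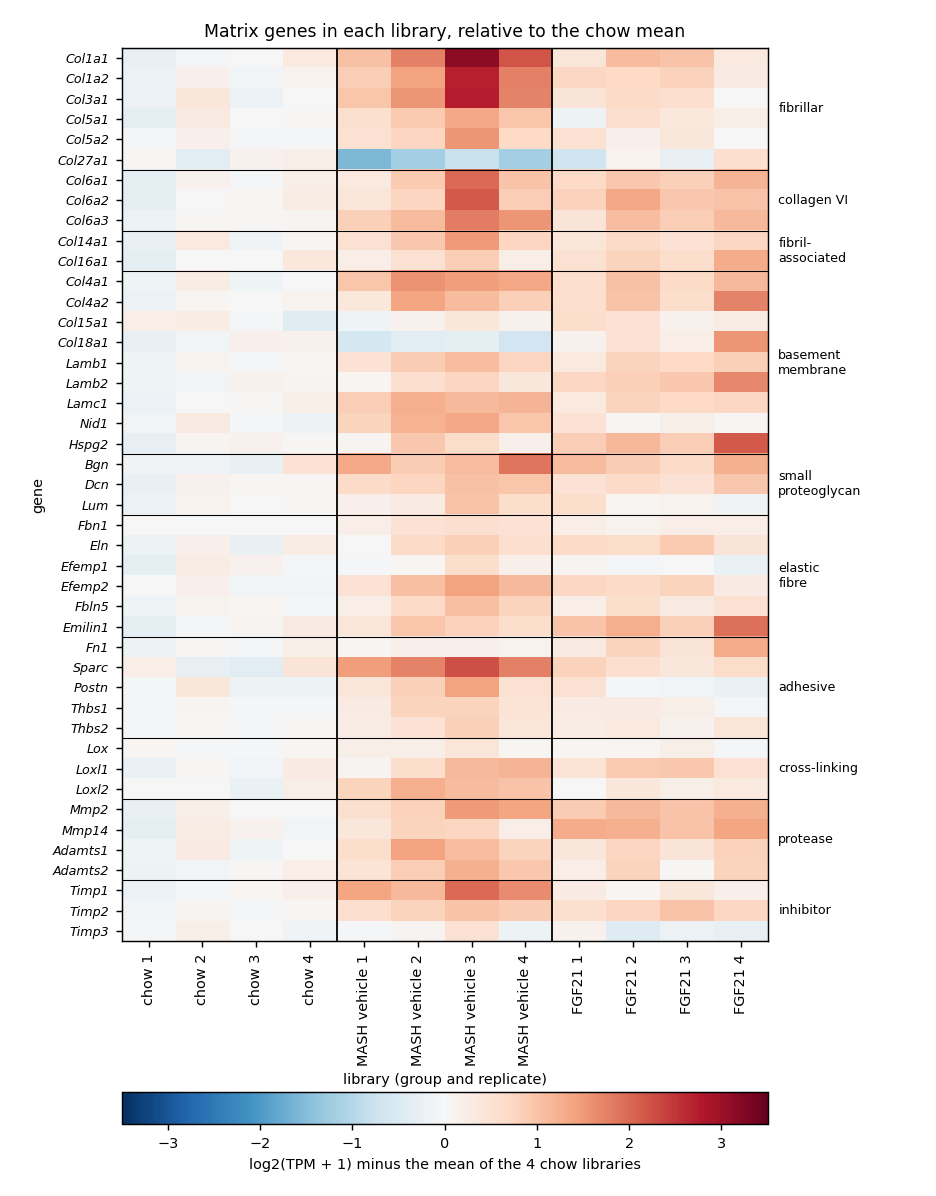
Level of each of the 44 genes (rows, by class) in each of the 12 libraries (columns), as log2(TPM + 1) minus the mean of the 4 chow libraries, red higher and blue lower. Most rows are red in MASH vehicle, deepest in replicate 3 (highest of its group for 32 of 44 genes), and the first 3 rows (Col1a1, Col1a2, Col3a1) are paler in FGF21.

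The first comparison, MASH vehicle against chow, shows the matrix genes on the MASH diet. Of the 40 tested members, 31 rose, 1 fell (Col27a1) and 8 did not pass. Among all genes tested 29.5% rose and 7.84% fell. The median log2 fold change of the tested members was 0.88, against 0.19 over all genes. On the log2(TPM + 1) scale, which understates the change of low genes, the collagen I and III chains, Sparc and Timp1 had the highest log2 fold changes. With median-of-ratios scaling the median of all genes moved from 0.191 to −0.008 and the share of calls that were higher from 79.0% to 44.6%, and 27 members rose and 2 fell. In that setting 1592 of all 10988 genes rose and 1980 fell. Log2 fold changes over all genes had a Spearman rho of 0.423 with the GC content of the gene, and with that trend removed 25 members rose and 2 fell. With it removed 1415 of all 10810 genes rose and 1287 fell. Col4a2, Col6a2, Eln, Emilin1, Loxl1, Lum and Mmp14 lost the call in at least 1 of the 25 alternatives, and the other 24 members that rose kept it wherever they were tested.

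All 5 of the fibrillar collagen genes other than Col27a1 rose. Col1a1, a chain of collagen I, was at 1.2, 1.5, 1.6 and 2.3 TPM in chow and at 4.3, 7.9, 22.0 and 11.1 in MASH vehicle. The groups did not overlap, and MASH vehicle replicate 3 was far above the other libraries (log2 fold change 2.03 ± 0.343 SE, limma adjusted p = 6.60e-04). Col1a2, the other chain of collagen I, went from 2.6, 3.7, 2.9 and 3.5 to 6.6, 10, 26.4 and 13.1 TPM (1.69 ± 0.29, adjusted p = 7.33e-04). Col3a1, the chain of collagen III, had the highest level of this class, with 6.5, 10.5, 6.5 and 7.7 TPM in chow and 16.1, 24.3, 57.5 and 27.7 in MASH vehicle (1.75 ± 0.298, adjusted p = 6.83e-04). The same library, replicate 3, was the highest for all 3 genes and replicate 1 the lowest. The ratio of Col1a1 to Col1a2 TPM was 0.405 to 0.657 in chow and 0.652 to 0.847 in MASH vehicle. Collagen V chains, which are built into the core of collagen I fibrils, rose too, Col5a1 from 3.83 ± 0.862 to 8.38 ± 2.14 TPM and Col5a2 from 0.675 ± 0.15 to 2.20 ± 1.15 (mean ± SD, n = 4 here and below).

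Col27a1, a fibrillar collagen best known from cartilage, moved the other way. Its levels were 18.3, 13, 19.4 and 20.4 TPM in chow and 5.2, 7.1, 9.9 and 7.2 in MASH vehicle, with every MASH vehicle library below every chow library (−1.18 ± 0.249, adjusted p = 0.00297). In chow its mean of 17.8 ± 3.3 TPM was above that of Col3a1, 7.8 ± 1.89.

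Collagen VI forms beaded filaments around cells, and all 3 of its chains rose. Col6a1 had 2.8, 4.4, 3.7 and 4.6 TPM in chow and 5.1, 8.1, 18.1 and 8.6 in MASH vehicle (1.06, adjusted p = 0.00821). Col6a3 had 1.1, 1.5, 1.5 and 1.6 TPM in chow and 3.3, 4.2, 7.4 and 6.1 in MASH vehicle (1.32 ± 0.202, adjusted p = 3.23e-04). In both genes replicate 3 was again highest, and the groups did not overlap. Col6a2 rose from 2.48 ± 0.58 to 6.95 ± 4.82 TPM. Of the collagens that sit on fibril surfaces, Col14a1 went from 12.6, 19.3, 13.8 and 15.6 to 22.3, 29.8, 44.1 and 26.0 TPM (0.92 ± 0.185, adjusted p = 0.00218), and Col16a1, with 1.85 ± 0.574 and 2.95 ± 0.854 TPM, missed the threshold (adjusted p = 0.0759).

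Of the 9 basement membrane genes 5 rose: both collagen IV chains, the laminin chains Lamb1 and Lamc1, and nidogen 1. Lamc1, the gamma chain of most laminins, had 1.7, 2.1, 2.2 and 2.6 TPM in chow and 4.7, 6.6, 5.9 and 6.1 in MASH vehicle. The 2 groups were far apart for their spread (1.12 ± 0.135, adjusted p = 5.78e-05). Col4a1 went from 9.43 ± 1.49 to 25.4 ± 4.43 TPM (1.34 ± 0.163, adjusted p = 6.02e-05) and its neighbour Col4a2 from 6.83 ± 0.741 to 14.3 ± 4.36 (0.92 ± 0.251, adjusted p = 0.0125). The ratio of Col4a1 to Col4a2 was 1.22 to 1.6 in chow and 1.53 to 2.14 in MASH vehicle. The exons of these genes overlap on opposite strands, but only in the short stretch from 11312805 to 11312826 of chromosome 8. Whether the counting used strand is not stated, so reads there may be shared. Nid1, which links laminin to collagen IV, had 2.0, 3.0, 2.1 and 1.8 TPM in chow and 4.5, 6.4, 7.1 and 5.3 in MASH vehicle (1.08 ± 0.156, adjusted p = 2.18e-04). Lamb1 rose from 1.68 ± 0.222 to 3.70 ± 0.753 TPM.

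Col18a1, whose protein carries the endostatin fragment, was the most abundant member and did not follow. Its levels were 525.9, 585.9, 712.3 and 695.0 TPM in chow and 405.2, 474.7, 506.7 and 391.9 in MASH vehicle. All 4 MASH vehicle libraries were below all 4 chow libraries, yet the fit gave −0.50 ± 0.242 with an adjusted p of 0.116. Without FGF21 replicate 4, which enters the shared estimate of spread, the same −0.50 had an adjusted p of 0.0079, and with median-of-ratios scaling the value was −0.73 (adjusted p = 0.0375). Lamb2 (3.38 ± 0.443 and 5.05 ± 1.19 TPM), the perlecan gene Hspg2 (4.40 ± 0.698 and 6.65 ± 2.19) and Col15a1 (2.93 ± 0.793 and 3.30 ± 0.653) did not pass.

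The 3 small leucine-rich proteoglycans, which bind collagen fibrils and set their width, all rose, Lum with a call that was lost in 12 of 24 alternatives. Dcn, decorin, had 40.2, 53.0, 50.7 and 49.6 TPM in chow and 77.8, 82.3, 98.7 and 95.2 in MASH vehicle (0.86 ± 0.131, adjusted p = 3.18e-04). Bgn, biglycan, rose from 35.5 ± 9.66 to 88.8 ± 28.2 TPM, and Lum, lumican, was at 1.0, 1.5, 1.3 and 1.4 TPM in chow and 1.6, 1.8, 3.6 and 2.5 in MASH vehicle (0.52, adjusted p = 0.0416). The Lum value was 0.38 with median-of-ratios scaling (adjusted p = 0.134) and 0.36 without MASH vehicle replicate 3 (adjusted p = 0.114). Its call was also lost without MASH vehicle replicate 4, without FGF21 replicate 2 or 3, and without any 1 chow library (adjusted p = 0.0506 to 0.109). Decorin and biglycan were thus above each of the collagen I and III chains in TPM in every library of both groups.

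Elastic fibre genes rose in 4 of 5 tested cases. Efemp2 (fibulin 4), needed for the assembly of elastin, had 4.1, 4.8, 3.8 and 3.8 TPM in chow and 6.3, 9.7, 12.6 and 10.3 in MASH vehicle (1.03 ± 0.175, adjusted p = 6.62e-04). Some of its exon bases are shared with Mus81. Emilin1, the most abundant of the class, had 8.5, 10.7, 11.9 and 14 TPM in chow and 15.3, 22.9, 20.2 and 17.7 in MASH vehicle (0.71 ± 0.218, adjusted p = 0.0217). Eln, elastin itself, rose from 2.77 ± 0.68 to 4.47 ± 1.19 TPM, a call lost in 10 of 24 alternatives, and Fbln5 from 1.57 ± 0.222 to 3.20 ± 0.949, while Efemp1 was at 2.95 ± 0.7 and 3.58 ± 0.981 and did not pass. Fbn1, fibrillin 1, stayed under the filter with 0.2 TPM in each chow library and 0.4 to 0.8 in MASH vehicle.

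Sparc, a collagen-binding matricellular protein that is secreted during matrix assembly, had the smallest p of its class. It was at 28.7, 19.5, 18.2 and 33.5 TPM in chow and at 69.1, 82.8, 119.1 and 85.1 in MASH vehicle (1.81 ± 0.199, adjusted p = 2.75e-05). Postn, periostin, rose from 1.40 ± 0.476 to 3.27 ± 1.42 TPM. Fn1, fibronectin, had 363.5, 422.5, 391.2 and 468.0 TPM in chow and 429.2, 465.4, 459.6 and 444.5 in MASH vehicle, groups that overlapped (0.13 ± 0.169, adjusted p = 0.545). The thrombospondin genes Thbs1 and Thbs2, under the filter, were at 0.2 to 0.3 and 0.3 to 0.4 TPM in chow and at 0.5 to 1.1 and 0.6 to 1.4 in MASH vehicle.

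Of the lysyl oxidase family, which cross-links collagen and elastin, Loxl2 had 1.0, 1.0, 0.7 and 1.3 TPM in chow and 2.4, 3.8, 3.3 and 3.0 in MASH vehicle (1.04 ± 0.133, adjusted p = 8.48e-05). Loxl1 had 0.9, 1.3, 1.1 and 1.7 TPM in chow and 1.4, 2.4, 3.9 and 4.1 in MASH vehicle (0.76 ± 0.218, adjusted p = 0.016), with groups that overlapped. Lox itself was at 0.0 to 0.1 TPM in chow and 0.1 to 0.4 in MASH vehicle and was not tested.

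All 4 proteases rose on the diet. Mmp2, a gelatinase, had 0.8, 1.5, 1.2 and 1.2 TPM in chow and 2.2, 2.8, 5.1 and 4.6 in MASH vehicle (1.06 ± 0.189, adjusted p = 9.23e-04). Mmp14, the membrane-bound collagenase that activates Mmp2, had 17.4, 26.4, 24.7 and 20.4 TPM in chow and 29.3, 38.2, 38.0 and 26.0 in MASH vehicle. Its groups overlapped by 1 library, and its call (0.54 ± 0.158, adjusted p = 0.0172) was lost with median-of-ratios scaling (0.32, adjusted p = 0.132) and with the GC trend removed (0.23, adjusted p = 0.307). It was lost as well without MASH vehicle replicate 2 (adjusted p = 0.0587) or chow replicate 1 (0.0575). Adamts1, an aggrecanase, rose from 2.22 ± 0.472 to 5.42 ± 1.59 TPM and Adamts2, which trims the amino end of procollagens, from 1.15 ± 0.265 to 3.02 ± 0.862.

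Among the inhibitors Timp1 had the smallest p of all members. It was listed at 0.0, 0.1, 0.2 and 0.3 TPM in chow and at 2.0, 1.5, 3.5 and 2.6 in MASH vehicle (1.54 ± 0.158, adjusted p = 1.74e-05), and it passed the filter only through this group, so that a difference was built into its being tested. Timp2, which also takes part in the activation of Mmp2, went from 3.1, 3.7, 3.2 and 3.5 to 5.6, 6.5, 7.7 and 7.1 TPM (0.81 ± 0.123, adjusted p = 3.02e-04). Timp3, whose exons overlap Syn3, missed the threshold with 4.40 ± 0.56 and 4.85 ± 1.35 TPM (adjusted p = 0.672).

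**Figure D2:**
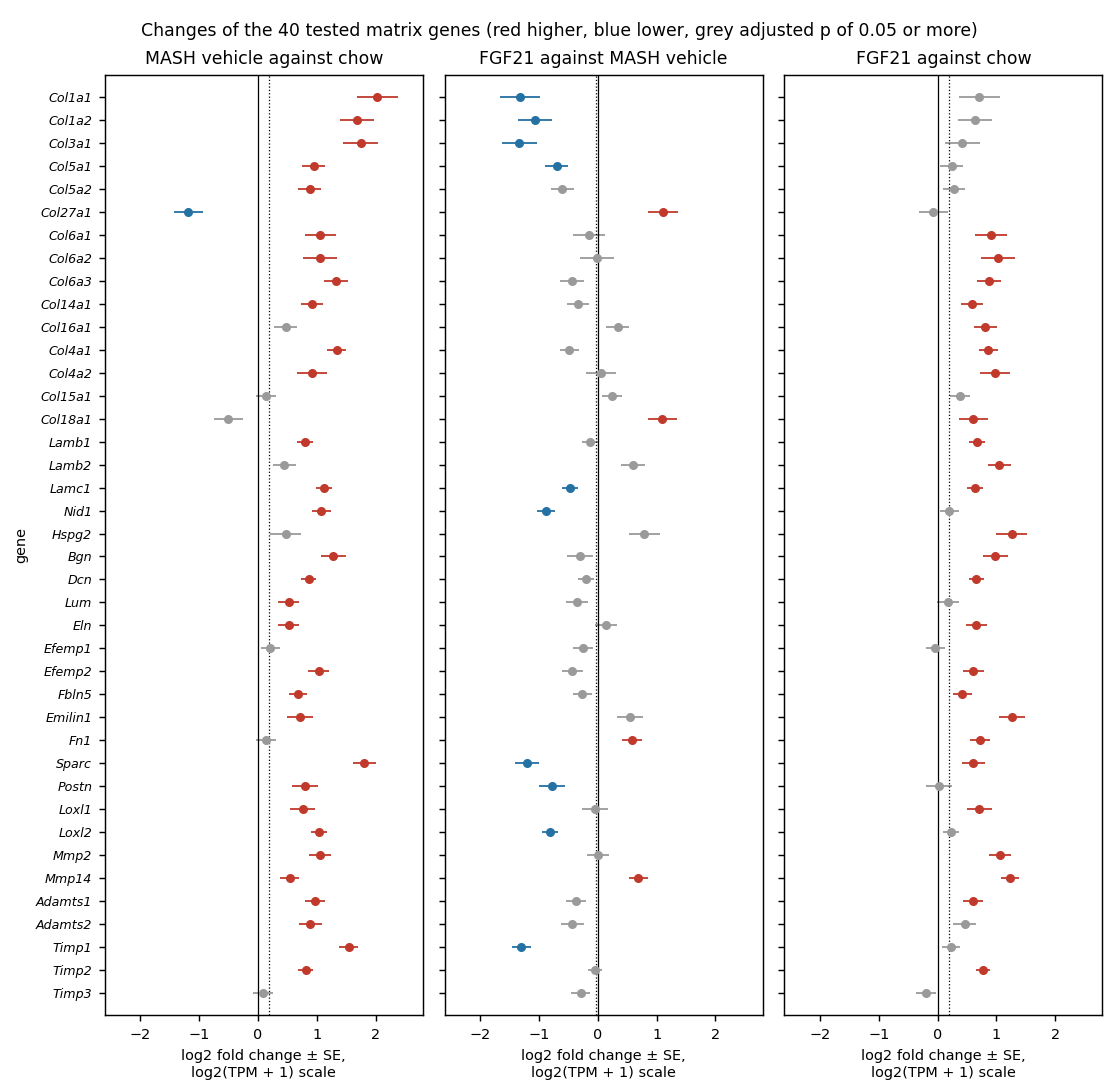
Log2 fold change ± SE of the 40 tested genes in each of the 3 comparisons, on the log2(TPM + 1) scale; red is higher, blue lower and grey not past an adjusted p of 0.05, the solid line marks 0 and the dotted line the median of all genes (0.19, −0.03 and 0.20). On the left 31 genes are red and 1 is blue, in the middle 4 are red and 10 blue, and on the right 25 are red and none is blue.

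The second comparison, FGF21 against MASH vehicle, shows what differed on the same diet with the hormone. Of the 40 tested members 10 were lower with FGF21 (Col1a1, Col1a2, Col3a1, Col5a1, Lamc1, Nid1, Sparc, Postn, Loxl2 and Timp1), 4 were higher (Col27a1, Col18a1, Fn1 and Mmp14) and 26 did not pass. Among all genes tested 6.02% were higher and 4.28% lower. The median log2 fold change of the tested members was −0.28, against −0.03 over all genes. All of the 10 that were lower had risen in the first comparison, which uses the same MASH vehicle libraries, so the directions are not independent. With only the 8 libraries compared in the fit 5 were lower and 3 higher, and without MASH vehicle replicate 3, MASH vehicle replicate 4 or FGF21 replicate 4 it was 5 lower in each case. Without FGF21 replicate 3 it was 6 lower, and without MASH vehicle replicate 1 or replicate 4 it was 2 higher. The calls over all 10988 genes moved too, from 662 higher and 470 lower to 348 and 283 with only the libraries compared. Over all genes 339, 242 and 320 were lower without MASH vehicle replicate 3, MASH vehicle replicate 4 or FGF21 replicate 4. Without FGF21 replicate 3 it was 425 lower, and without MASH vehicle replicate 1 or 4 it was 294 or 327 higher. Of the 10 genes, Col3a1, Loxl2, Nid1, Sparc and Timp1 kept the call in every alternative in which they were tested, and of the 4 higher genes Col18a1 and Col27a1 did.

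Timp1 had 0.4, 0.2, 0.5 and 0.3 TPM with FGF21, below all 4 MASH vehicle libraries (1.5 to 3.5 TPM) and overlapping chow (0.0 to 0.3). The log2 fold change was −1.30 ± 0.158 (adjusted p = 5.80e-04), and ran from −2.46 with a pseudocount of 0.1 to −0.46 with 5. Timp1 passed the filter only through the MASH vehicle libraries, so being lower with FGF21 was also built into its being tested. It is among the 10 lower genes and the 5 that kept the call. Sparc was at 43.0, 36.6, 32.2 and 38.6 TPM, against 69.1 to 119.1 in MASH vehicle and 18.2 to 33.5 in chow (−1.20 ± 0.199, adjusted p = 0.00377). Loxl2 was at 1.0, 1.6, 1.3 and 1.5 TPM, below the 2.4 to 3.8 of MASH vehicle (−0.81 ± 0.133, adjusted p = 0.00367). Nid1 was at 3.5, 2.3, 2.7 and 2.3 TPM against 4.5 to 7.1 (−0.88 ± 0.156, adjusted p = 0.0053). In these 4 genes no FGF21 library reached the lowest MASH vehicle library.

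The collagen I and III chains were lower as well, with a wider spread within MASH vehicle. Col3a1 had 10.8, 12.9, 11.9 and 7.5 TPM with FGF21 against 16.1 to 57.5 in MASH vehicle (−1.33 ± 0.298, adjusted p = 0.0147). Col1a1 had 2.5, 4.6, 4.2 and 2.3 TPM, of which replicate 2 was above the lowest MASH vehicle library, 4.3 (−1.32 ± 0.343, adjusted p = 0.0287). Col1a2 had 5.8, 5.7, 6.3 and 4.1 TPM, all below the 6.6 to 26.4 of MASH vehicle (−1.06 ± 0.29, adjusted p = 0.0352). Summed per library, Col1a1, Col1a2 and Col3a1 came to 27, 42.2, 106 and 51.9 TPM in MASH vehicle, to 19.1, 23.2, 22.4 and 13.9 with FGF21 and to 10.3, 15.7, 11 and 13.5 in chow. Without MASH vehicle replicate 3 the calls of Col1a1 (−0.95, adjusted p = 0.0586) and Col1a2 (−0.72, adjusted p = 0.0551) were lost, and without FGF21 replicate 4 as well (−1.20 and −0.95, adjusted p = 0.0749 and 0.0902). Both were also lost without MASH vehicle replicate 4 (adjusted p = 0.0736 and 0.082), and Col1a2 without FGF21 replicate 2 or 3 (0.0734 and 0.0505) and with the GC trend removed (0.0615). Col5a1 fell to 4.75 ± 1.25 TPM with groups that overlapped and lost its call in 10 of 25 alternatives, and Col5a2, at 1.05 ± 0.311, did not pass (−0.60, adjusted p = 0.0643).

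The other members called lower were weaker. Lamc1 had 3.0, 4.4, 4.1 and 4.2 TPM against 4.7 to 6.6 (−0.47 ± 0.135, adjusted p = 0.0423) and Postn 2.4, 1.3, 1.2 and 1.0 against 2.2 to 5.3 (−0.77 ± 0.22, adjusted p = 0.0427). Lamc1 lost its call in 15 alternatives and Postn in 13.

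Most matrix genes that had risen on the diet showed no call with FGF21. None of the 3 collagen VI chains passed limma's adjusted threshold, with 1 lower at an unadjusted p under 0.05. Col6a1 had 6.8, 8.3, 7.6 and 9.9 TPM against 5.1 to 18.1 in MASH vehicle (−0.15 ± 0.267, adjusted p = 0.775), and Col6a3 had 2.3, 4.1, 3.4 and 4.3 against 3.3 to 7.4 (−0.44, adjusted p = 0.187). Of the fibril-associated collagens and the small proteoglycans none passed, adjusted or unadjusted. Col14a1 had 20.8, 24.6, 22.1 and 25.5 TPM (−0.34, adjusted p = 0.273) and Dcn had 68.2, 77.8, 69.4 and 94.0 (−0.20 ± 0.131, adjusted p = 0.372). Bgn was at 70.2 ± 12.5 TPM and Lum at 2.5, 1.4, 1.5 and 1.1 (−0.35, adjusted p = 0.255). None of the 5 tested elastic fibre genes passed, with 1 higher and 1 lower at an unadjusted p under 0.05, and Efemp2, at 7.4, 7.1, 7.7 and 5.2 TPM, had −0.43 ± 0.175 (adjusted p = 0.141). Mmp2 had 3.0, 3.7, 3.3 and 4.1 TPM and Timp2 5.5, 6.4, 7.8 and 6.2, with log2 fold changes of −0.00 ± 0.189 and −0.05 ± 0.123. Loxl1, unlike the call for Loxl2, was at 2.1, 3.2, 3.3 and 2.2 TPM (−0.05 ± 0.218, adjusted p = 0.918), but the difference between these 2 genes was not tested.

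Of the 4 members that were not tested, Fbn1 was at 0.3 to 0.4 TPM with FGF21, Thbs1 at 0.2 to 0.5, Thbs2 at 0.5 to 0.8 and Lox at 0.0 to 0.2, none above the MASH vehicle range.

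The 4 genes that were higher with FGF21 held both of the abundant members. Col18a1 had 697.2, 890.3, 729.5 and 1809.1 TPM, above all MASH vehicle libraries (391.9 to 506.7), and replicate 4 was the highest by far (1.1 ± 0.242, adjusted p = 0.0138). Fn1 had 514.1, 701.1, 565.2 and 1006.1 TPM against 429.2 to 465.4, again highest in replicate 4 (0.58 ± 0.169, adjusted p = 0.0451). Without FGF21 replicate 4 the Fn1 value was 0.39 (adjusted p = 0.0661), and the call was lost in 13 of 25 alternatives. Col27a1 had 10.4, 19.2, 14.3 and 26.9 TPM, above the 5.2 to 9.9 of MASH vehicle and overlapping chow (1.11 ± 0.249, adjusted p = 0.0149). Mmp14 had 55.2, 53.1, 45.0 and 59.0 TPM, above both other groups in every library (0.69 ± 0.158, adjusted p = 0.0167). Its call was lost with the GC trend removed (0.49, adjusted p = 0.0681) and without MASH vehicle replicate 1 or 4 (adjusted p = 0.0542 in both). The ratio of Mmp14 to Timp2 TPM was 5.61 to 7.72 in chow, 3.66 to 5.88 in MASH vehicle and 5.77 to 10 with FGF21. The GC content of the genes called higher was 53.1 to 60.4%, with a median of 58.4%, against 41.9 to 57.8% (median 51.8%) for those called lower and a median of 50.7% over all genes tested. Log2 fold changes over all genes had a Spearman rho of 0.391 with GC content, and with the trend removed 10 members were lower and 3 higher. In that setting 582 of all 10810 genes were lower and 451 higher.

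**Figure D3:**
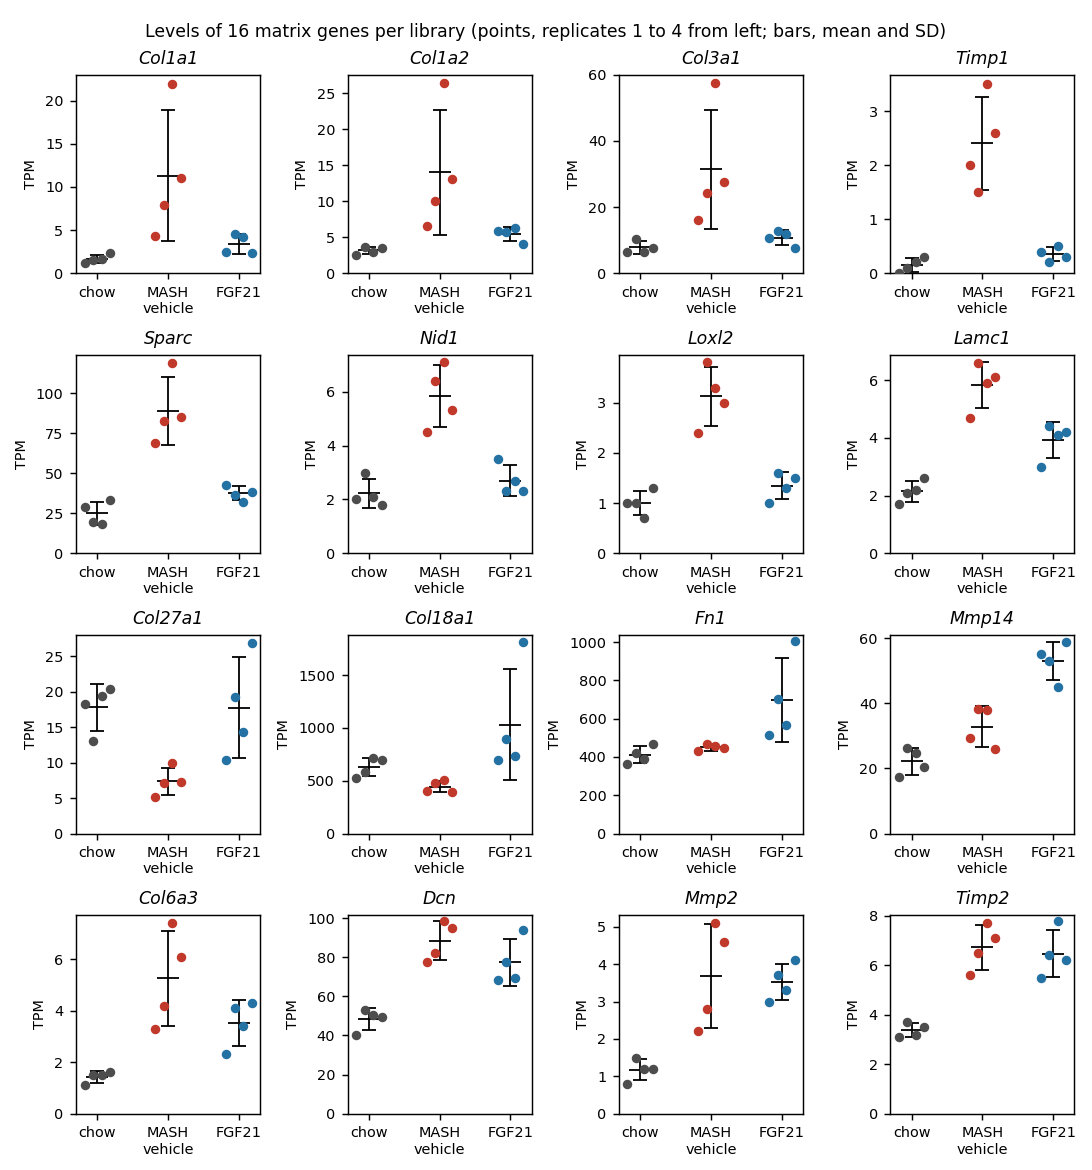
TPM in each library for 16 of the genes; points are libraries, replicates 1 to 4 from left to right, and bars give the mean and SD of 4 libraries, with each vertical axis starting at 0. In the 8 upper panels the FGF21 means lie below those of MASH vehicle, in the third row they lie above, with Col18a1 and Fn1 highest in FGF21 replicate 4 (1809.1 and 1006.1 TPM), and in the last row the FGF21 and MASH vehicle points overlap.

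**Figure D4:**
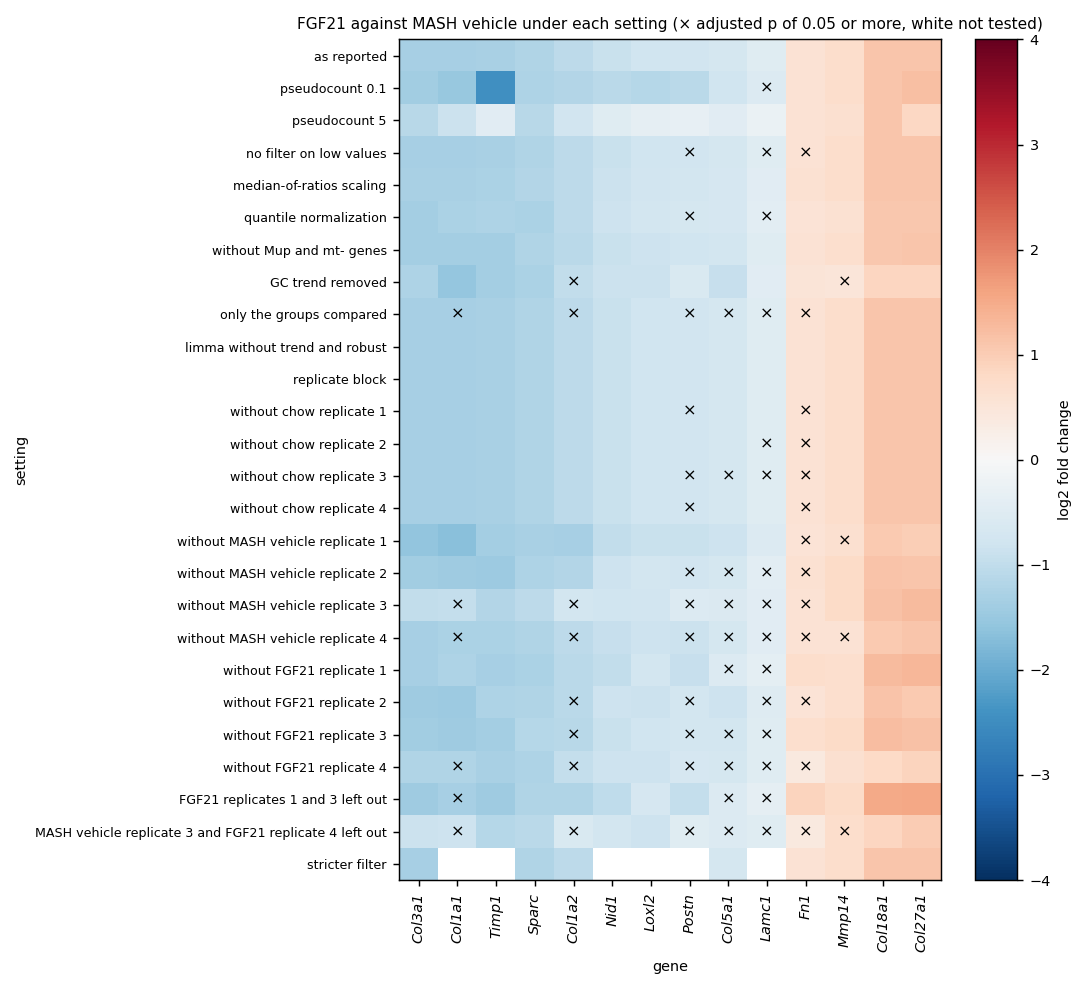
Log2 fold change of FGF21 against MASH vehicle (colour) for the 14 called genes (columns) under the reported setting and the 25 alternatives (rows); a cross marks an adjusted p of 0.05 or more and white a gene not tested. Columns without a cross are Col3a1, Timp1, Sparc, Nid1, Loxl2, Col18a1 and Col27a1, and the crosses of Col1a1 and Col1a2 include the settings without MASH vehicle replicate 3 or FGF21 replicate 4.

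The third comparison, FGF21 against chow, sets the treated livers on the MASH diet beside the livers on chow, and shares libraries with both comparisons above. Of the 40 tested members 25 were higher, none was lower by limma (none at an unadjusted p under 0.05 either) and 15 did not pass. Among all genes tested 37.8% were higher and 14.2% lower. The median of the members was 0.64 against 0.20 over all genes. The count depends on GC content, whose Spearman rho with the log2 fold changes over all genes was 0.619: with that trend removed 8 of the 40 members were higher. In that setting 1533 of all 10810 genes were higher and 1643 lower. Scaling by the median of ratios moved the median of all genes from 0.2 to 0.021 and the share of higher calls from 72.7% to 48.8%, and 20 members were then higher. With that scaling 2551 of all 10988 genes were higher and 2680 lower.

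Grouped by the 3 comparisons, 8 genes rose on the diet, were lower with FGF21 and were not called against chow: Col1a1, Col1a2, Col3a1, Col5a1, Nid1, Postn, Loxl2 and Timp1. How many of all tested genes had this or any other joint pattern was not counted. The numbers of members per pattern are therefore a description and not a trait of matrix genes. A p that misses the threshold does not make these 8 genes equal to chow, and the lowest FGF21 library was level with the highest chow library for Col1a1 (2.3 TPM; 0.71, adjusted p = 0.0969) and above it for Col1a2 (4.1 against 3.7 TPM; 0.63, adjusted p = 0.0832). Both collagen I genes were called higher than chow in 4 alternatives, with only the groups compared (adjusted p = 0.0186 and 0.00971), without MASH vehicle replicate 1 (0.0446 and 0.0424) or replicate 3 (0.0332 and 0.0154), and without MASH vehicle replicate 3 and FGF21 replicate 4 (0.0246 and 0.0094). In the last of these Col3a1 was called as well (0.57, adjusted p = 0.0361). Sparc and Lamc1 were lower with FGF21 and still above chow (0.61, adjusted p = 0.0219, and 0.64, adjusted p = 0.00225). The FGF21 and chow libraries of Sparc overlapped (lowest 32.2 against highest 33.5 TPM), and its call against chow was lost in 6 of 25 alternatives, among them the GC trend removed (0.17, adjusted p = 0.586), median-of-ratios scaling (0.40, adjusted p = 0.132) and chow replicate 2 or 3 left out (0.51 and 0.48, adjusted p = 0.0695 and 0.0685). For 17 genes, namely the 3 collagen VI chains, both collagen IV chains, Col14a1, Lamb1, Bgn, Dcn, Eln, Efemp2, Fbln5, Emilin1, Loxl1, Mmp2, Adamts1 and Timp2, the rise on the diet had no call against MASH vehicle with FGF21 and the FGF21 libraries were above chow. Col4a1 was near the threshold against MASH vehicle (−0.48, adjusted p = 0.0811) and was called lower with the GC trend removed (−0.67, adjusted p = 0.0119) and with quantile normalization (−0.53, adjusted p = 0.0392). With the GC trend removed its call against chow was lost (0.36, adjusted p = 0.0699), and Fbln5 lost that call in 13 of 24 alternatives. Mmp2, with 3.0 to 4.1 TPM against 0.8 to 1.5 in chow, had a log2 fold change of 1.06 (adjusted p = 8.63e-04), and Timp2 0.77 (adjusted p = 4.82e-04). Col16a1, Lamb2 and Hspg2 passed only against chow (0.81, 1.05 and 1.26), with Hspg2 at 8.8, 10.9, 8.8 and 22.9 TPM with FGF21. Emilin1, at 23.1, 28.5, 20.6 and 44.8 TPM, and Mmp14 had 1.26 and 1.23 (adjusted p = 7.41e-04 and 1.31e-04). Col18a1 was higher than chow at 0.61 with an adjusted p of 0.0496, a call that was lost in 19 of 25 alternatives, among them without FGF21 replicate 4 (0.30, adjusted p = 0.0901). Col15a1, Efemp1 and Timp3 passed in no comparison. Of the 25 genes called higher than chow 7 kept the call in every alternative in which they were tested: Dcn, Emilin1, Hspg2, Lamb2, Lamc1, Mmp14 and Mmp2.

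Other genes of the matrix pathway were read from lists of enzymes, receptors and signals, whose counts stand beside the 29.5% of all tested genes that rose and the 7.84% that fell on the diet, and the 6.02% higher and 4.28% lower with FGF21. Of 17 tested collagen-processing genes 13 rose on the diet and 1, Bmp1, fell. P4ha2, a prolyl hydroxylase that stabilises the collagen triple helix, had the smallest p, going from 3.55 ± 0.695 to 11.6 ± 0.465 TPM, and stayed at 10.3 ± 1.79 with FGF21 (−0.16 ± 0.137, adjusted p = 0.506). Bmp1, which trims the carboxyl end of procollagens, was the only gene of that list called with FGF21, at 112 ± 5.59, 83.6 ± 5.29 and 180 ± 50.6 TPM in chow, MASH vehicle and FGF21 (1.06 ± 0.154 against MASH vehicle, adjusted p = 0.00179). No gene of the list was called lower with FGF21 by limma, with 1 gene lower at an unadjusted p under 0.05.

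Of 4 tested genes for other collagens, Col12a1 rose from 0.675 ± 0.562 to 2.27 ± 0.287 TPM and was lower with FGF21 at 0.70 ± 0.779, and Col13a1, a membrane-bound collagen, was higher with FGF21 than with MASH vehicle (4.97 ± 1.18 against 1.77 ± 0.68). Of 30 tested genes for other matrix proteins 15 rose and 1 fell on the diet. With FGF21 Agrn was higher and Spp1 lower, and the gene that fell on the diet was Vtn. Igfbp7 went from 75.5 ± 4.59 to 144 ± 16.8 TPM on the diet and Spp1, osteopontin, from 45 ± 19.3 with MASH vehicle to 19 ± 2.4 with FGF21. Of 27 tested genes for other matrix enzymes 14 rose and 1, Reck, fell on the diet, and with FGF21 the genes that were lower included Mmp12, Plau and Ctss, and those that were higher were Adamts7, Adamts10 and Adamts13. Mmp12, the macrophage elastase, was at 0.125 ± 0.05, 4.12 ± 1.07 and 0.35 ± 0.3 TPM in the 3 groups (2.17 ± 0.158 on the diet, adjusted p = 2.76e-06, and −1.93 ± 0.158 with FGF21, adjusted p = 6.05e-05). It passed the filter only through the MASH vehicle libraries, so both differences were built into its being tested.

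Of 20 tested integrins and matrix receptors 9 rose and 3 fell on the diet, and 4 were higher with FGF21 and none lower by limma, with 2 lower at an unadjusted p under 0.05. The hyaluronan receptor Cd44 rose from 0.675 ± 0.15 to 2.10 ± 0.163 TPM, and the laminin receptor chain Itga3 was at 6.20 ± 0.753 with MASH vehicle and 11.1 ± 2.48 with FGF21. Of 18 tested TGF-beta and PDGF pathway genes 6 rose on the diet, a share near that of all genes, and none was called with FGF21 against MASH vehicle by limma, with 2 higher and 2 lower at an unadjusted p under 0.05. Tgfb1, the cytokine that drives collagen transcription in stellate cells, went from 5.45 ± 0.473 to 15.2 ± 3.39 TPM on the diet and was at 13.2 ± 1.35 with FGF21 (−0.17 ± 0.143, adjusted p = 0.487).

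Agrn, Vtn, Reck, the Adamts genes of this list, Plau, Ctss and the marker genes named next were chosen after their values were seen.

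Markers of matrix-making cells were read as well. Their counts stand beside the 29.5% of all tested genes that rose on the diet and the 7.84% that fell. With FGF21 the shares of all genes were 6.02% higher and 4.28% lower. Of 18 tested stellate cell markers, which include the member Dcn, 9 rose on the diet, and with FGF21 Hand2 and Des were higher and Steap4 lower. Des is also in the list of smooth muscle markers, whose sum was 19.4 and 29.9 TPM in FGF21 replicates 1 and 3 and 8.8 and 9.1 in replicates 2 and 4. The summed TPM of the stellate markers was 338 to 459 in chow, 464 to 651 in MASH vehicle and 555 to 625 in FGF21, and none of the 20 in the table was at 0 throughout a group. The largest part came from 1 gene, Ecm1, at 213 ± 27.8, 272 ± 39.6 and 332 ± 22.3 TPM in the 3 groups. The mean sums were 402, 559 and 590 TPM, so they rest largely on Ecm1 and do not stand for the list as a whole. Within MASH vehicle the stellate sum had the same order of libraries as the sum of the 3 collagen I and III genes (464, 554, 651 and 567 TPM in replicates 1 to 4). Within FGF21 the order differed: the stellate sums were 555, 625, 581 and 599 TPM, and replicate 4, lowest in the collagen sum, was the second highest. Of 6 tested myofibroblast markers 4 rose on the diet and none was called with FGF21 by limma, with 0 at an unadjusted p under 0.05. Their sum was 37.2 to 58.2, 120 to 165 and 63.6 to 180 TPM, with Grem1 at 0 in chow and in MASH vehicle and Fap in MASH vehicle. The myofibroblast list shares Cnn1 and Actg2 with the smooth muscle list, and the 180 TPM was in FGF21 replicate 3. Portal fibroblast markers summed to 63.5 to 77, 124 to 157 and 82 to 145 TPM, of which Gas6 alone held 48.5 ± 6.49, 103 ± 17.2 and 90.8 ± 24.5. FGF21 replicate 4, which had the lowest Col1a1, Col1a2 and Col3a1 sum of its group, also had the lowest myofibroblast and portal fibroblast sums (63.6 and 82 TPM) and the highest sums of sinusoidal and vascular endothelial markers (421 and 425 TPM, against 258 to 317 and 274 to 344 in the other 3). A few genes hold large parts of these sums too. In FGF21 Spon2 and Tpm2 were at 41.7 ± 15.9 and 32.8 ± 15.4 TPM of the myofibroblast mean of 122. Clec4g was at 127 ± 15.7 of the sinusoidal mean of 325. Eng, Plvap and Ltbp4 were at 139 ± 27.5, 88.3 ± 2.82 and 58.5 ± 36.1 of the vascular mean of 335. The sums do not stand for their lists as a whole.

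Macrophage markers summed to 72.7 to 90.8 TPM in chow, 270 to 327 in MASH vehicle and 208 to 334 in FGF21. Of 12 tested, 11 rose on the diet, against 29.5% of all genes. With FGF21 5 were lower and 1 higher, against 4.28% and 6.02% of all genes. Hepatocyte markers summed to 66100 to 78900, 59400 to 67100 and 72700 to 84100 TPM. The largest part was Alb, at 22000 ± 3580, 24000 ± 1140 and 30600 ± 7340, and the sums do not stand for the list. Of 11 tested, 6 fell and 0 rose on the diet, against 7.84% and 29.5% of all genes. With FGF21 1 was higher than with MASH vehicle, and 6 were lower and 3 higher than in chow (14.2% and 37.8% of all genes). Sums of cholangiocyte markers were 39.3 to 54.9, 40 to 87.3 and 43.1 to 45 TPM, with Cftr at 0 in all groups, and sums of mesothelial markers 3.5 to 4.8, 4.7 to 8.9 and 3.5 to 12.7, with Muc16 at 0 in chow and MASH vehicle. The part of any of these cell types in the changes of the matrix genes was not tested. Without FGF21 replicates 1 and 3, the libraries high in smooth muscle markers, 8 of the 40 tested members were lower with FGF21 than with MASH vehicle and 7 higher. Calls grew over all genes as well. Of 10988 genes 1767 were then higher and 1222 lower, against 662 and 470 in the reported fit, so the added calls are not particular to the members. Among the members Hspg2, Lamb2 and Emilin1 joined the higher genes (1.18, 0.82 and 0.89, adjusted p = 0.0114, 0.0242 and 0.0121).

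**Figure D5:**
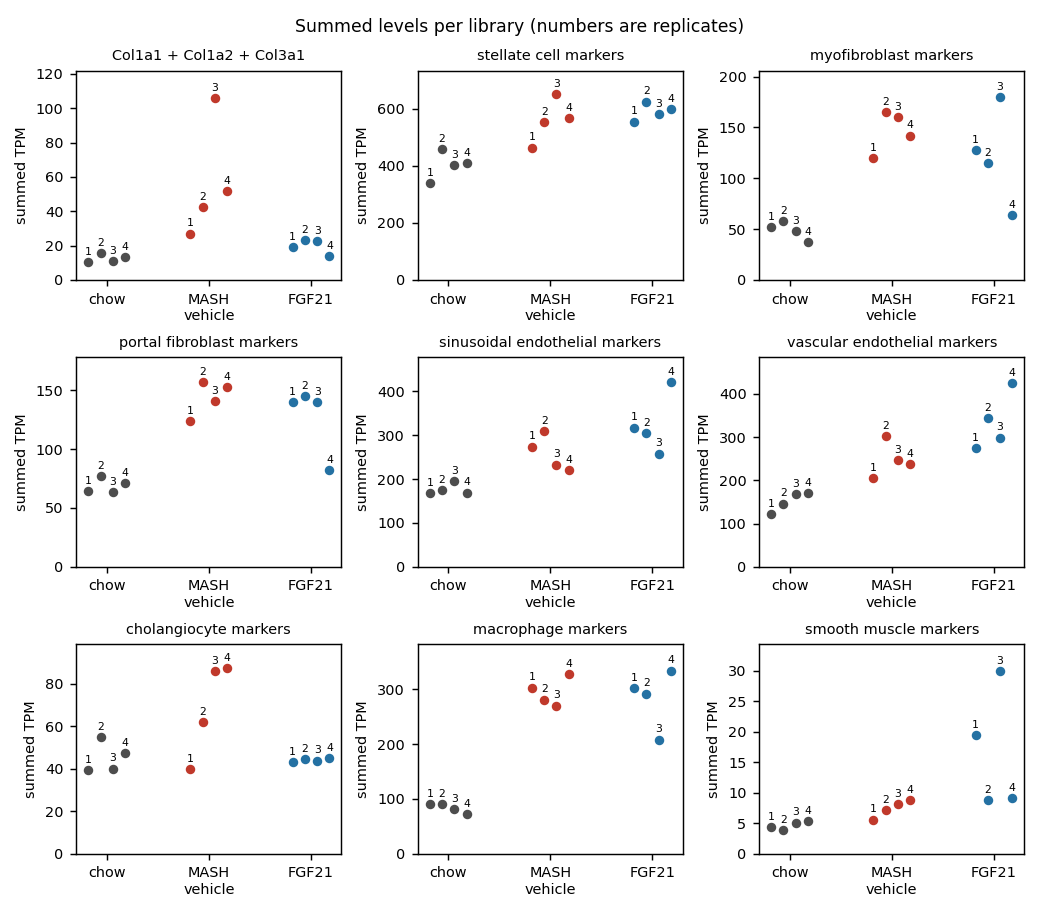
Summed TPM per library of Col1a1, Col1a2 and Col3a1 and of 8 lists of cell type markers, in each group, with the replicate number at each point and axes starting at 0. The collagen sum is highest in MASH vehicle replicate 3 (106 TPM) and lowest among FGF21 libraries in replicate 4 (13.9 TPM). The stellate marker sums of MASH vehicle and FGF21 overlap (464 to 651 and 555 to 625 TPM), with Ecm1 as their largest part.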

How the data were processed

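Polyadenylated RNA of whole liver was measured in 12 libraries, isolated with a Qiagen RNeasy kit and then enriched on oligo-dT, per the labels' protocols. The submitters' processing notes list mm10, Salmon 1.10.2 and Trim Galore 6.10. What annotation, gene summary, gene filter and strand setting were used is not given in the sources used here. In the table that the authors deposited the sheet is named for FPKM, but each column sums to nearly 1000000, so these deposited values were taken to be TPM. TPM keeps no depth, so no counting interval can be given and the precision rests on the 4 libraries of a group. Each of the 12 columns matched the library name of 1 sample.

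From these values log2(TPM + 1) was computed for the 10988 genes with at least 1 TPM in at least 4 libraries. With limma 3.58.1 in R 4.3.3, using its trend and robust options, a 3-group model of the 12 libraries gave 3 contrasts. Two-sided p-values were adjusted after Benjamini and Hochberg over every tested gene, and 0.05 was the threshold. The procedure was tested on simulated data before use. Levels are compared between genes in TPM, which is per length. GC content and gene positions came from GENCODE M21 (GRCm38), and 10810 of the tested genes had a GC content. Promoter sequences came from RefSeq.

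The 44 members, their classes, the lists of other matrix genes and of cell type markers, the tests and the alternatives were chosen with earlier results of these data known. All members are named. Values per library are given for the member of each class with the highest mean, the smallest p on the diet and the smallest p with FGF21, and for Col1a1, Col1a2, Col3a1 and Timp1. Of each list of other genes the called gene of smallest p is named for the first 2 comparisons. There were 25 alternatives: pseudocounts of 0.1 and 5, a filter of 5 TPM or none, median-of-ratios scaling, quantile normalization, totals without Mup and mitochondrially encoded genes, the trend of each library with GC content removed, a fit of only the groups compared, limma without trend and robust, the replicate number as a block, each library left out in turn, and FGF21 replicates 1 and 3 left out. The last, MASH vehicle replicate 3 left out together with FGF21 replicate 4, was added after seeing the data. The values of 1 gene of the other lists are not reported here.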

Additional observations from a re-analysis of the deposited data

Results flagged for a closer look

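In each group of 4 libraries the highest or lowest library of each member was compared with the other 3 (Dixon's test, 95% level). Of 131 groups tested, 7 stood out, and chance gives about 1 in 20. MASH vehicle replicate 3 was far above its group for Col5a2, a collagen V chain (3.9 TPM against 1.4 to 1.8), and Col6a2, a collagen VI chain (14.1 against 3.6 to 5.3). FGF21 replicate 4 was far above its group for the perlecan gene Hspg2 (22.9 TPM against 8.8 to 10.9), and chow replicate 4 for the biglycan gene Bgn (49.8 against 28.7 to 31.9). The other cases are low genes whose values differ by a few steps of the 1 decimal deposited. Col5a2 was at 0.9 TPM in chow replicate 2 against 0.6, Thbs1 at 0.3 in the same library against 0.2, and Fbn1 at 0.3 in FGF21 replicate 2 against 0.4.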

How the results depend on the processing

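Under the 25 alternatives no member changed direction in a comparison where it was called, in the reported fit or in the alternative. Some values without a call did change sign, among them Fn1 on the diet (0.13, and −0.25 with the GC trend removed). The 31 members higher in MASH vehicle than in chow became 15 with the stricter filter, which tested 20 members, and 35 of 44 with no filter. They became 27, 26, 25 and 28 with median-of-ratios scaling, quantile normalization, the GC trend removed and Mup and mitochondrially encoded genes left out, and 26 to 33 with 1 library left out. Over all genes, the 3242 that rose became 2371 of 7576 with the stricter filter and 3610 of 14632 with none. In the scaling, quantile, GC and Mup settings they became 1592, 1683, 1415 and 2247, and 2363 to 3747 with 1 library left out. The 1 lower member became 2 with median-of-ratios scaling, the GC trend removed, only the groups compared, FGF21 replicates 1 and 3 left out, or MASH vehicle replicate 3 and FGF21 replicate 4 left out together, and 1 to 2 with 1 library left out. With FGF21 against MASH vehicle, the 4 higher members became 7 without FGF21 replicates 1 and 3, 2 without MASH vehicle replicate 3 and FGF21 replicate 4, and 2 to 6 with 1 library left out. Over all genes, the 662 higher became 1767, 193 and 286 to 1273 in these settings. The 10 lower members became 4 with the stricter filter, 5 with only the groups compared, 5 without MASH vehicle replicate 3 and FGF21 replicate 4, and 5 to 11 with 1 library left out. The 470 genes lower over the whole table became 334, 283, 213 and 242 to 941. Against chow, the 25 higher members became 16 with the stricter filter and 8 with the GC trend removed, and 22 to 27 with 1 library left out. The 4153 genes higher over the whole table became 3181, 1533 and 3371 to 4449. The cause of these changes was not tested, except that the stricter filter tests fewer genes. With the replicate block, the diet comparison gave 33 higher members and 1 lower, with 5 higher and 12 lower with FGF21 than with MASH vehicle, and 26 higher with FGF21 than in chow. Over all genes the block gave 3630 higher and 1058 lower on the diet. With FGF21 958 genes were higher and 635 lower than with MASH vehicle, and 4389 were higher than in chow. The replicate numbers were not taken as pairs, because the labels do not say that a number pairs libraries. The library names carry numbers of their own, and most replicates of equal number in different groups have unequal numbers there. The block and the following correlations therefore rest on the replicate order alone. Libraries of equal replicate number correlated in their deviations from the group means at −0.176 to 0.403, 0.088 to 0.284 and −0.123 to 0.405 in the 3 comparisons, 4 pairs each. MASH vehicle and FGF21 libraries of unequal replicate number correlated at −0.48 to 0.283. These values do not decide whether the replicate numbers are pairs. The unknown depth and the 1 decimal of the values limit what can be said of members under 1 TPM.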
